A study of Mus musculus with 4 samples.

Results

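Axon guidance ligands and receptors steer growing axons and migrating cells, and 57 genes of these families were followed in mouse P19 cells on their way to neurons. The members were all genes whose single annotated symbol belongs to the Eph receptors, ephrins, class 3 to 7 semaphorins, plexins, neuropilins, Slits, Robos, netrins, Unc5 receptors or Dcc. They were 57 of the 12393 genes with 1 symbol on the arrays, and were read by 96 of 22690 probe sets. The same name rule matches 69 genes of a current mouse gene table, and the other 12, among them Ephb1, Ephb2, Robo2, Plxna4 and Unc5a, were not analysed here. Each gene was represented by its probe set with the highest mean, and 25 genes had several probe sets.

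Total RNA was hybridised to 1-colour Affymetrix arrays from 2 lines of P19, an embryonal carcinoma line that forms neural cells when aggregated in retinoic acid. The control was unmodified P19, and the other line made human LIN28A constitutively, a protein that binds the precursors of let-7 microRNAs and keeps them from maturing. Aggregates of either line were kept for 4 days with all-trans retinoic acid at 5e-07 M, in alpha-MEM with fetal bovine serum, bovine serum and penicillin/streptomycin. Each line has 2 arrays, numbered 1 and 2 in the labels. The vector, its promoter and whether the LIN28A line is 1 clone are not given in the sources used here, and whether the arrays read the human transgene was not tested, so the labels were not checked on it. The labels call the arrays repeats and name no separate cultures. The p-values therefore measure only how these arrays spread, and that spread may be technical.

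In textbook accounts, guidance cues act through a few ligand and receptor systems. Ephrins are tethered to the cell surface and signal through Eph receptor tyrosine kinases when cells touch. Semaphorins act through plexins, with neuropilins as co-receptors for most secreted class 3 members. Slits repel through Robo receptors, and netrins attract through Dcc or repel through Unc5 receptors. In the neural tube, Ntn1 and the Slits are made at the floor plate and guide axons that cross the midline.

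Among the members, 4 genes lay at least 0.5 lower in LIN28A cells within both replicate numbers, on the scale of log2(intensity + 16) used for every difference here. They were the receptor genes Epha3 and Epha5, the netrin gene Ntn1 and the semaphorin gene Sema5b. Over all genes with 1 symbol, 2.05% did so, against 7.02% of the members. With a pseudocount of 1 in place of 16, where low values weigh more, the shares were 9.26% and 10.5%, nearly alike. In such bulk RNA, fewer cells of a type and less RNA per cell cannot be told apart. Only Sema3a lay at least 0.5 higher within both numbers, making up 1.75% of the members against 1.06% of all genes. The nearest gene outside that bound was Dcc, at -0.48 in number 1 and -0.55 in number 2. The bound was a description with no test, since each number holds 1 array of each line. The gene set within the bound depended on scaling: Epha3 and Ntn1 kept it under quantile normalization, and Epha3 and Epha5 under median centring. Under either of these Plxnd1, at 0.45 and 0.80 as deposited, joined Sema3a.

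Annotated promoters of those genes are shown to let their sequence be compared, since these genes lay apart from the other members within both numbers. Promoter entries for build GRCm38.p6 were at hand for 4 of the 5 genes, each with 1 start, and there was none for Ntn1. Each stretch runs from 250 bases before to 50 bases after that start. The windows were chr16:63864126-63864425 on the minus strand for Epha3, chr5:84417333-84417632 on the minus strand for Epha5, chr16:35541112-35541411 on the plus strand for Sema5b and chr5:13396534-13396833 on the plus strand for Sema3a. Capitals mark CG pairs.
Epha3: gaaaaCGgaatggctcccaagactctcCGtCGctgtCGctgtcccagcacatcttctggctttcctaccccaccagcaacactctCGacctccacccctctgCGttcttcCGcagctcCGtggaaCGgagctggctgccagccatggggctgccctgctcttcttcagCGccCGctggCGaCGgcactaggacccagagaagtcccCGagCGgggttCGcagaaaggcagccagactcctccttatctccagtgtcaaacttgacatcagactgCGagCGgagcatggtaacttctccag
Epha5: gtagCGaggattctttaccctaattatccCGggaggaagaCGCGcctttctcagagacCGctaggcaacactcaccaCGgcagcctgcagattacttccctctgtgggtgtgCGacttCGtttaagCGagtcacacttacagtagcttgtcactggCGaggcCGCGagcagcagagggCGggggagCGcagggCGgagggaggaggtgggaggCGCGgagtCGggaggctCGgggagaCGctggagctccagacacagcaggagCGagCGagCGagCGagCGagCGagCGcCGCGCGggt
Sema5b: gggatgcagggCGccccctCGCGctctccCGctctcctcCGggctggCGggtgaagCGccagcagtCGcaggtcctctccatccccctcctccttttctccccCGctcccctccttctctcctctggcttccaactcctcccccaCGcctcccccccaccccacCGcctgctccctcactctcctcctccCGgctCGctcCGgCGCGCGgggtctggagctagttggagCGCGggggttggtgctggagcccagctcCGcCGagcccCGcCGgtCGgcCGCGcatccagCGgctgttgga
Sema3a: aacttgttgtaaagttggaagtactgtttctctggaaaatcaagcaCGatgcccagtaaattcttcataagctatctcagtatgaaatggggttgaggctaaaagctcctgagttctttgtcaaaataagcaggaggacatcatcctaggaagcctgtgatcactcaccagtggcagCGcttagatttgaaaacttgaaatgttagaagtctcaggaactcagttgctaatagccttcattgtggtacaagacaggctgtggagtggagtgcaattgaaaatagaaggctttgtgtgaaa
The stretches of the lower genes held 18 CG pairs in Epha3, 30 in Epha5 and 27 in Sema5b, and that of Sema3a held 2. The G and C content was 60.7%, 64.3% and 73.0% for Epha3, Epha5 and Sema5b and 41.3% for Sema3a. The Sema3a start lies 271962 bases inside the annotated extent of its gene, so other starts of Sema3a may be in use. Over 62 promoters of 49 members the median was 20 CG pairs, against 17 over the 12566 promoters of genes with 1 symbol on the arrays. None of the 4 stretches held AGGTCA, a half-site of retinoid receptors, or CAGCTG, an E-box form bound by basic helix-loop-helix factors, searched on both strands; the 2 motifs do not overlap in letters. AGGTCA was in 16.1% of the members' promoters and in 13.6% of those of genes on the arrays, and CAGCTG in 12.9% and 16%. These matches describe the letters of each window only.

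No member passed limma's test over all 15838 probe sets tested at an adjusted p under 0.05, and neither did any other probe set (0% called higher and 0% called lower). Of the 57 members, 44 passed the filter on low values and were tested. At an unadjusted p under 0.05, 0 were higher and 2 were lower, Epha3 and Epha5. Their unadjusted limma values were 0.0245 and 0.0322, and the adjusted p was 1.0 for each of the 44. Over all tested probe sets the same threshold took 0.442% higher and 1.21% lower. With 2 arrays against 2, a two-sided exact permutation test of 1 gene cannot give a p below 0.333. Values are therefore given array by array, and words such as lower describe where they lay.

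The pair of LIN28A arrays exceeded the pair of control arrays for 6 members, or 10.5%, where 10% of all genes did so. It lay below for 10 members, or 17.5%, where 18.3% of all genes did so. As deposited, those shares were close to the background. Quantile normalization put 14 members, or 24.6%, above in both arrays against 14.9% of all genes, and median centring 11, or 19.3%, against 17.9%. Below in both arrays lay 8, or 14%, against 14% under quantile normalization, and 7, or 12.3%, against 7.5% under median centring. The median difference over the 57 members was -0.06, the same as over all genes. It was -0.13 within number 1 and 0.14 within number 2, against -0.11 and 0.01 over all genes. Median centring moved the median over all genes from -0.06 to 0.07 and that of the members to 0.07. Quantile normalization put them at 0.00 and 0.04.

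Arrays of 1 number resembled each other more than arrays of 1 line. Pearson's r over probe sets, which are not independent replicates, was 0.98 between lines within either number. It was 0.95 for the controls and 0.96 for LIN28A cells. LIN28A 1 had the lowest median intensity, 29, although the trimmed mean was 150.1 in every array. Medians of the others were 35.8 (control 1), 36.7 (LIN28A 2) and 38.6 (control 2). The array control BioB-M also fell from 482 to 279 between control 1 and LIN28A 1, while number 2 gave 150 (control) and 153 (LIN28A). Under median centring the number 1 difference was -0.77 for Slit2 and -0.82 for Robo1, from -0.98 and -1.02 as deposited. The part of these differences in array median and array control in the number 1 differences was not tested. Ribosomal 18S RNA read 677 and 136 in the number 1 arrays at its middle probe set, against 9.20 and 11.3 in number 2. Number 2 lay above number 1 for 39 of the 57 members, or 68.4%, against 46.1% of all genes. What the number marks is not given, so differences are printed within each number.

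**Figure D1:**
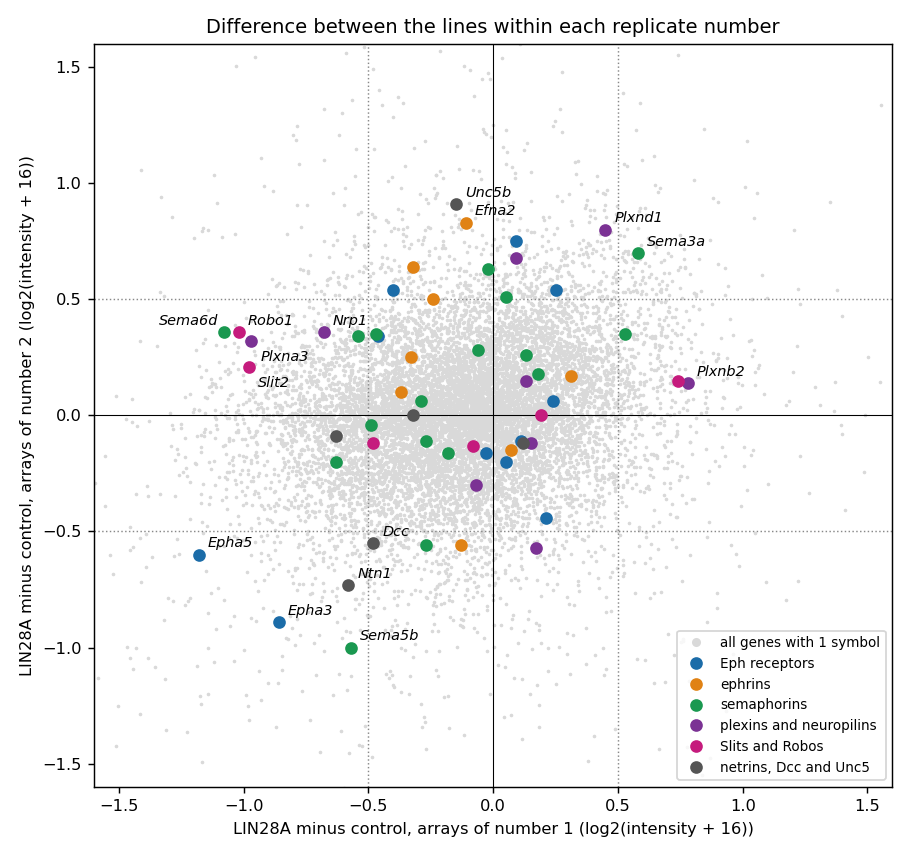
Each coloured point is 1 of the 57 members, with the LIN28A minus control difference of the number 1 arrays on the x axis and of the number 2 arrays on the y axis, both on log2(intensity + 16). Grey points are all genes with 1 symbol, of which 103 lie outside the axes, and dotted lines mark 0.5 in either direction; Epha3, Epha5, Ntn1 and Sema5b lie in the lower left corner and Sema3a in the upper right.

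The spread of the members was wide within a single number, and the numbers often disagreed. In number 1, 12 members lay at least 0.5 lower and 4 at least 0.5 higher, or 21.1% and 7.02%, against 17.4% and 5.24% of all genes. In number 2, 8 lay at least 0.5 lower and 11 at least 0.5 higher, or 14% and 19.3%, against 6.45% and 6.62% of all genes. Of the 57, 16 lay below 0 within both numbers and 14 above, against 4181 and 2683 of the 12393 genes with 1 symbol. A further 18 members lay below 0 in number 1 and above in number 2, or 31.6%, against 28.9% of all genes. The reverse held for 7 members, or 12.3%, against 14.1% of all genes. Across the 57 members the differences of number 1 and number 2 had Pearson's r = 0.23, against 0.19 across all genes, which share the same 4 arrays.

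Eph receptors fall into A and B classes by the ephrins they bind. Of 8 EphA genes, 7 lay below 0, with a median of -0.08, but only 2 of 8 did so under median centring and 5 of 8 under quantile normalization. Of all 12393 genes, 7424 lay below 0 as deposited, 4999 under median centring and 6121 under quantile normalization. The 7 included Epha1, Epha6 and Epha8, which read under 16 in every array. All 3 EphB genes read here lay above 0 under each of the scalings, with a median of 0.15 as deposited. The 11 receptors together had a median of -0.06, with 0.05 in number 1 and -0.11 in number 2.

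Epha3 encodes a receptor for A-type ephrins found on growing axons. It read 270 and 326 in control 1 and control 2 and 142 and 168 in LIN28A 1 and LIN28A 2. The LIN28A values were each below both controls, and the replicates of each line were near each other. The means were 298 ± 39.2 and 155 ± 18.5 (SD, n = 2), a difference of -0.88 ± 0.29 SE by limma. Number 1 gave -0.86 and number 2 -0.89, and leaving out 1 array gave -1.0 to -0.75. A second probe set read 35.0 and 143 in the controls against 10.7 and 72.3 with LIN28A, with -0.93 and -0.85 within the numbers, although the arrays of the lines overlapped. The third, dimmer set gave 0.09 in number 1 and -1.63 in number 2.

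Epha5, a receptor of the same class with roles in topographic maps of the brain, read 35.8 and 35.0 in the controls against 6.90 and 17.6 with LIN28A. The LIN28A arrays were again both below the control arrays, but LIN28A 1 lay under the pseudocount of 16, where the log scale compresses differences. Its difference was -0.89 ± 0.32 SE, with -1.18 in number 1 and -0.60 in number 2. The other Epha5 probe set gave -0.34 and -0.20.

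Epha7 lay the other way at its leading probe set. It encodes a receptor that patterns the neural tube and cortex, and read 162 and 142 in the controls against 172 and 250 with LIN28A. The lines did not overlap, but the gap in number 1 was small, with 0.09 against 0.75 in number 2. Its other probe sets gave mean differences of -0.41 and -0.15, so the direction for Epha7 depends on the probe set. Epha4, expressed in hindbrain segments and motor neurons, differed by 0.21 in number 1 and -0.44 in number 2. Epha2 differed by -0.46 and 0.34.

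Ephb3, a receptor for B-type ephrins, read 52.7 and 31.8 in the controls against 65.7 and 53.4 with LIN28A, without overlap between the lines. It differed by 0.25 in number 1 and 0.54 in number 2. Ephb4, known for its role in vessels, differed by -0.40 and 0.54, and Ephb6, whose kinase domain is inactive, by 0.24 and 0.06. Epha1, Epha6 and Epha8 read under 16 in every array and give no usable comparison.

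**Figure D2:**
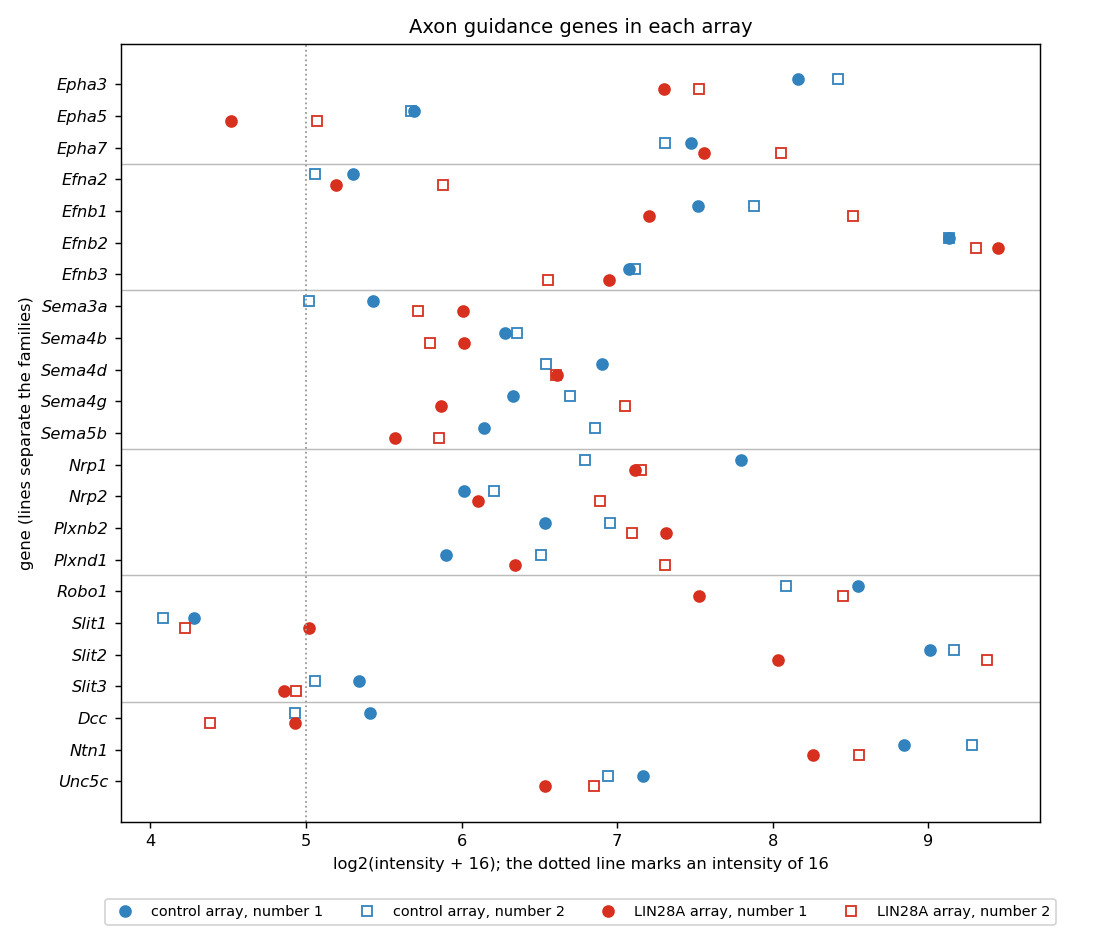
Intensities of the 23 members named by rule, as log2(intensity + 16) on the x axis, 1 row per gene, with control arrays in blue and LIN28A arrays in red; filled circles are number 1 and open squares number 2. For Epha3, Epha5, Sema5b and Ntn1 both red symbols lie left of both blue ones, for Sema3a both lie right, and for Slit2 and Robo1 the red circle lies left of the other 3 symbols.

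Ephrins, the ligands of these receptors, had a median of 0.05, with -0.18 in number 1 and 0.21 in number 2. Efnb2, a transmembrane ligand of EphB receptors and of Epha4, read 546 and 546 in the controls against 684 and 618 with LIN28A. The lines did not overlap at this probe set, and the difference was 0.24 ± 0.28 SE, smaller than its error. Its other 3 probe sets lay below 0, at -0.15, -0.55 and -0.55. Efnb3, the midline ligand that keeps corticospinal axons from recrossing, read 119 and 122 in the controls against 107 and 78.1 with LIN28A. The lines did not overlap, and the difference was -0.34 ± 0.30 SE, most of it from number 2 (-0.56 against -0.13).

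Efnb1, the third B-type ligand, read 167 and 220 in the controls against 131 and 350 with LIN28A. The LIN28A arrays lay on either side of the controls, at -0.32 in number 1 and 0.64 in number 2, and all 3 of its probe sets had a mean above 0. Efna2, a ligand tethered by a lipid anchor as all A-type ephrins are, read 23.4 and 17.3 in the controls against 20.5 and 43.0 with LIN28A. Its difference lay in number 2 (0.83 against -0.11). Efna3 and Efna4 had mean differences of -0.04 each, and Efna1 and Efna5 read under 16 in every array.

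Semaphorins were the largest family, with 17 genes and a median of -0.10, or -0.27 in number 1 and 0.26 in number 2. Of the 5 secreted class 3 genes, 4 lay above 0 under each of the scalings, with a median of 0.20 as deposited. Of the 12 membrane-bound genes, 9 lay below 0 as deposited, 8 under quantile normalization and 6 under median centring. In the same order, 4966, 6271 and 7394 of all 12393 genes lay above 0, and 7424, 6121 and 4999 below. The 4 class 3 genes above 0 were Sema3a, Sema3c, Sema3e and Sema3f, and the values of the last 3 mostly lay near or under 16.

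Sema3a, the classic growth cone collapsing factor, read 27.1 and 16.4 in the controls against 48.3 and 36.6 with LIN28A. The LIN28A arrays were both above the controls. The means were 21.8 ± 7.57 and 42.5 ± 8.27 (SD, n = 2), a difference of 0.64 ± 0.31 SE, with 0.58 and 0.70 within the numbers and 0.43 to 0.84 without 1 array. A second probe set read 15.8 and 14.9 in the controls against 11.5 and 20.7 with LIN28A, so it overlapped between the lines. The third read 1.80 or less in every array.

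Sema5b, a transmembrane semaphorin with thrombospondin repeats that repels retinal axons, read 54.8 and 100 in the controls against 31.6 and 42.0 with LIN28A. Both LIN28A arrays lay below the control arrays, and control 2 was high. The means were 77.4 ± 32.0 and 36.8 ± 7.35 (SD, n = 2). The difference was -0.79 ± 0.35 SE, with -0.57 in number 1 and -1.0 in number 2, and it was -0.43 without control replicate 2. Its relative Sema5a lay on the other side, at 0.53 and 0.35 within the numbers, although its 4 values of 6.0 to 27.7 overlapped and its second probe set had a mean of -0.25.

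Sema4b, a class 4 semaphorin, read 61.8 and 66.1 in the controls against 48.7 and 39.5 with LIN28A. The lines did not overlap, and the difference was -0.42 ± 0.28 SE. Sema4d, a ligand of B-type plexins, read 103 and 77.3 in the controls against 81.9 and 81.4 with LIN28A, within the spread of the control arrays. Sema4g differed by -0.47 in number 1 and 0.35 in number 2. Sema6d, a ligand of Plxna1, gave the largest gap between the numbers in this family, at -1.08 and 0.36, with values of 6.30 to 31.0.

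The remaining semaphorins read 37.6 or less in every array. Sema3b, Sema4a, Sema6a and Sema6b read under 16 in every array, and Sema3b lay lower in both LIN28A arrays there. Sema4f differed by -0.54 and 0.34, Sema6c by -0.27 and -0.11 and Sema7a, the lipid-anchored class 7 member, by 0.18 in both numbers.

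Plexins and neuropilins, the semaphorin receptors, had a median of 0.01, with 0.13 and 0.15 within the numbers. No receptor of this group lay lower in both LIN28A arrays. Plxnd1, a receptor for Sema3e, read 43.6 and 75.1 in the controls against 65.3 and 142 with LIN28A. Each LIN28A array lay above the control of its own number, by 0.45 and 0.80, while LIN28A 1 lay under control 2. Its mean difference was 0.62 ± 0.43 SE, and 0.14 without LIN28A replicate 2.

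Plxnb2, a receptor of class 4 semaphorins needed for neural tube closure, read 76.7 and 108 in the controls against 143 and 121 with LIN28A. The lines did not overlap, with 0.78 in number 1 and 0.14 in number 2. Plxna3 read 76.9 and 106 in the controls against 31.5 and 136 with LIN28A, which gave -0.97 in number 1 and 0.32 in number 2. Its second probe set gave 0.07 and -0.09. Plxnc1, the receptor of Sema7a, differed by -0.18 at its leading probe set, and 2 of its 4 probe sets lay above 0.

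Nrp1, the co-receptor for Sema3a and for vascular endothelial growth factor, read 206 and 94.8 in the controls against 123 and 126 with LIN28A. The LIN28A arrays lay between the control arrays. The difference was -0.68 in number 1 and 0.36 in number 2, and the other 2 probe sets of Nrp1 also had opposite signs in the 2 numbers. Nrp2, which prefers Sema3f, read 48.7 and 58.1 in the controls against 52.9 and 103 with LIN28A, with its gap in number 2 (0.68 against 0.09). Plxna2 differed by 0.15 and -0.12, and Plxna1 and Plxnb3 read under 16 in every array.

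**Figure D3:**
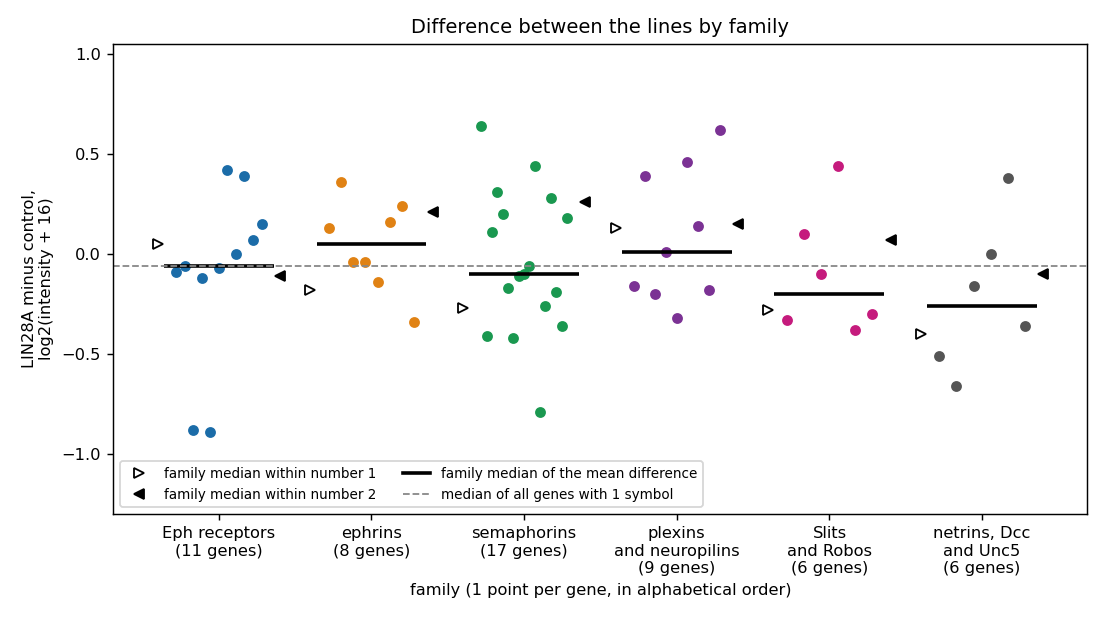
Each point is the mean LIN28A minus control difference of 1 gene on log2(intensity + 16), by family; black bars are family medians, open triangles the medians within number 1, filled triangles those within number 2, and the dashed line the median of all genes (-0.06). Family medians run from -0.26 for netrins, Dcc and Unc5 to 0.05 for ephrins, and the medians of the numbers lie on opposite sides of 0 for 4 of the 6 families.

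Slits and Robos had a median of -0.20, with -0.28 in number 1 and 0.07 in number 2. Slit2, a Slit ligand of the floor plate, read 501 and 558 in the controls against 247 and 648 with LIN28A. LIN28A 1 lay far below the other arrays, and LIN28A 2 was the highest. The differences were -0.98 in number 1 and 0.21 in number 2, and -1.04 and -0.29 at the second probe set. Robo1, a receptor for Slit2, read 358 and 255 in the controls against 168 and 333 with LIN28A. It too was lowest in LIN28A 1, with -1.02 in number 1 and 0.36 in number 2. Without LIN28A replicate 1 the mean difference was 0.29 for Slit2 and 0.13 for Robo1, against -0.38 and -0.33 with all arrays.

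The other members of that system read low. Slit3 read 24.5 and 17.3 in the controls against 13.0 and 14.6 with LIN28A, without overlap and with a difference of -0.30 ± 0.29 SE. Slit1 read 16.4 in LIN28A 1 and 0.900 to 3.40 in the other arrays. Robo3, which lets commissural axons cross the midline, and Robo4, an endothelial receptor, read under 10 in every array.

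Netrins and their receptors had a median of -0.26, the lowest of the 6 families. It was -0.40 in number 1 and -0.10 in number 2, and -0.18 under quantile normalization and -0.13 under median centring. The count of genes below 0 was 4 of 6 under each scaling. Over all 12393 genes it was 7424 as deposited, 6121 under quantile normalization and 4999 under median centring. Ntn1, the netrin of the floor plate, read 442 and 606 in the controls against 290 and 359 with LIN28A. No overlap was seen between the lines. The means were 524 ± 116 and 325 ± 48.6 (SD, n = 2), a difference of -0.66 ± 0.31 SE, with -0.58 and -0.73 within the numbers. Its second probe set, which read under 16 in every array, gave -0.65 and -0.53. The mean difference at the leading set was -0.44 without control replicate 2.

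Dcc, the receptor through which Ntn1 attracts axons, read 26.6 and 14.5 in the controls against 14.5 and 4.90 with LIN28A. LIN28A 1 equalled control 2, so the lines touched, and the difference was -0.51 ± 0.35 SE. It ran from -0.79 without LIN28A replicate 1 to -0.24 without LIN28A replicate 2, and was -0.75 without control replicate 2 and -0.27 without control replicate 1. Unc5c, a receptor that mediates repulsion by netrin, read 127 and 107 in the controls against 76.8 and 99.6 with LIN28A. The lines did not overlap, with -0.63 in number 1 and -0.09 in number 2, and -0.85 and -0.22 at the other probe set. Unc5b, the receptor best known from vessels, lay on the other side in number 2 (0.91, against -0.15 in number 1). Ntn3 and Ntn4 had mean differences of -0.16 and 0.00, with values of 17.4 or less.

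**Figure D4:**
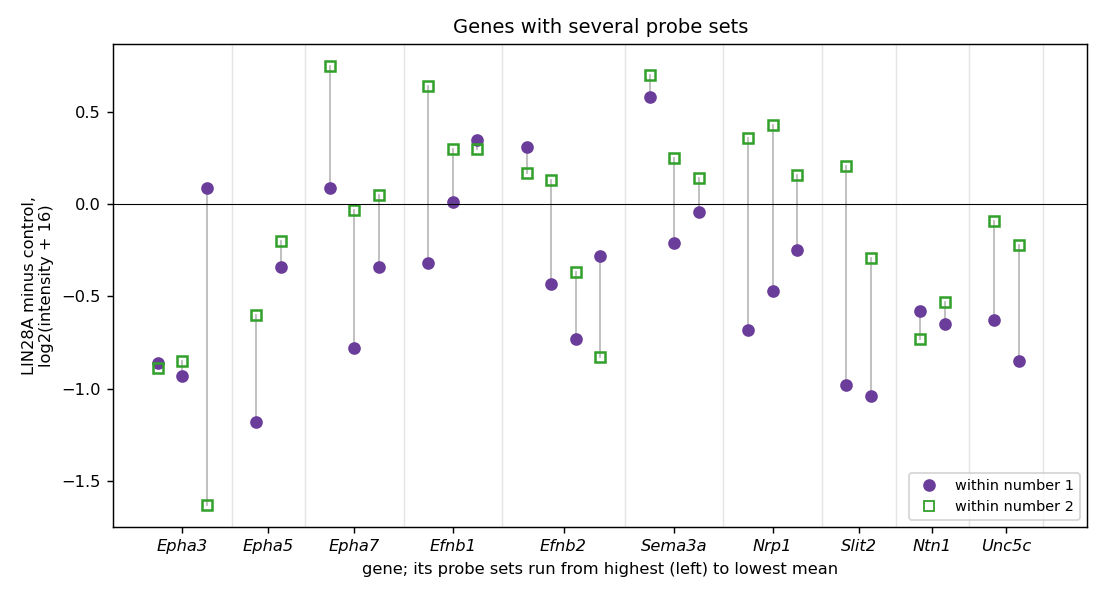
LIN28A minus control differences on log2(intensity + 16) for each probe set of 10 genes, with filled circles for number 1, open squares for number 2 and a grey line joining the numbers of a probe set. The leading sets of Epha3 and Ntn1 and their second sets lie near each other below 0, while the probe sets of Efnb2 and Epha7 lie on both sides of 0.

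Several probe sets of a gene gave a check on its direction. Of the 25 genes with several, 14 had the same sign of mean difference at every probe set, 11 of them below 0 and 3 above. The share of such genes over all genes with several probe sets was not computed. The 11 included Epha3, Epha5, Ntn1, Slit2 and Unc5c, and also Sema3b and Sema4a, which read under 16 at every probe set. The 3 were Efnb1, Sema3a and Sema3f, and the other sets of Sema3a gave mean differences of only 0.02 and 0.05. Plxnd1, Sema5b, Dcc and Robo1 had 1 probe set each, so no such comparison could be made for them.

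Ligands and receptors had near-equal medians over all arrays but not within the numbers. The 31 ligands had a median of -0.06, with 18 below 0, or 58.1%. The 26 receptors had a median of -0.07, with 15 below 0, or 57.7%. Of all genes, 59.9% lay below 0. The ligand median was -0.27 in number 1 and 0.17 in number 2, and the receptor median 0.01 and 0.03; this contrast was not tested. Under median centring 13 ligands and 9 receptors lay below 0, against 4999 of the 12393 genes.

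Partners of the pathway outside the members were read from a list of co-receptors, other guidance molecules and cytosolic mediators. Of 14 co-receptors and other guidance molecules with a probe set, all 14 lay below 0, with a median of -0.42, against 59.9% of all genes below 0. Under median centring 13 of 14 did so, against 4999 of the 12393 genes. The median of the 14 was -0.70 in number 1 and -0.23 in number 2. In number 1, 9 of the 14 lay at least 0.5 lower, or 64.3%, against 17.4% of all genes. In number 2 there were 2, or 14.3%, against 6.45%. Both LIN28A arrays lay lower for 6 of the 14, or 42.9%, against 18.3% of all genes. None lay higher, against 10% of all genes. Of the 14, 6 read under 16 in every array, among them Chl1 and Met, which were also among those lower in both LIN28A arrays. None passed limma's test at an adjusted p under 0.05, and at an unadjusted p under 0.05 there was 1, Ntng1.

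Ntng1, a membrane-anchored relative of the netrins, read 25.7 and 37.8 in the controls against 5.60 and 13.1 with LIN28A. Cxcl12, a chemokine that guides axons and migrating cells, read 67.9 and 70.4 in the controls against 18.7 and 51.9 with LIN28A. Its receptor Cxcr4 read 260 and 365 against 146 and 296, where LIN28A 2 overlapped the controls. Cntn1, an adhesion molecule of axons, read 254 and 202 against 136 and 181.

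The 43 cytosolic mediators lay elsewhere. Their median was 0.02 as deposited, with 22 above 0 and 21 below. It was 0.11 with 31 above 0 under quantile normalization and 0.15 with 32 above 0 under median centring. Of all 12393 genes, 4966 lay above 0 as deposited, 6271 under quantile normalization and 7394 under median centring, so the background moved too. None of the 43 passed limma's adjusted test, and 1 was higher at an unadjusted p under 0.05. That gene was Dock1, which activates Rac downstream of Dcc and read 10.1 and 1.0 in the controls against 60.6 and 27.0 with LIN28A. Ngef, the exchange factor ephexin that acts below EphA receptors, differed by 0.64 and 0.50, with values of 3.10 to 23.9. Nck2, an adaptor that binds guidance receptors, differed by -0.62 and -0.27, and by a mean of 0.33 at its second probe set.

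Neuronal markers lay on the same side as the lower members. All 12 lay below 0 as deposited, where 59.9% of all genes did so, and their median was -0.48. Under quantile normalization or median centring 11 of the 12 lay below 0, against 6121 and 4999 of the 12393 genes. The summed intensity of the 12 was 3554 and 5726 in the controls against 1920 and 3902 with LIN28A, lower within each number. Expression was lower in both LIN28A arrays than in either control for 4 of the 12, or 33.3%, against 18.3% of all genes. Rbfox3 read under 16 in every array. The part of neuronal markers in the differences of Epha3, Epha5, Ntn1, Sema5b and the partner genes was not tested.

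The markers of other cells bear on the label of the culture. Neural progenitor markers summed to 7339 and 8978 in the controls against 7549 and 6258 with LIN28A, and none of the 8 read under 16 in every array. Of the 8, 4 lay above 0 and 4 below. Hes5 was higher in both LIN28A arrays, at 186 and 194 in the controls against 924 and 337, while Sox2 and Vim were lower in both. Of the pluripotency markers Zfp42 and Tdgf1 read under 16 in every array, and 4 of the 7 lay below 0, with a median of -0.06. Their summed level was 172 and 401 in the controls against 264 and 935 with LIN28A. Pou5f1 carried it in number 2 (374 against 775) but read 30.3 and 28.7 in number 1. Sall4 read 16.4 and 2.10 in the controls against 194 and 83.1 with LIN28A. Utf1 read 5.50 and 3.80 against 16.4 and 16.5. These genes, Sall4 and Utf1, were higher in both LIN28A arrays, or 28.6% of the 7, against 10% of all genes. The endothelial markers Pecam1, Cdh5 and Cldn5 read under 16 in every array, as did the endoderm markers Sox17, Foxa2, Gata4, Afp and Ttr. Of 7 fibroblast and smooth muscle markers 6 lay above 0, on the side of Sema3a, and their part in its difference was not tested. Within number 1, however, 4 of the 7 lay below 0 (median -0.01, against 0.73 in number 2), and Col1a1, Lum, Pdgfrb and Tagln read under 16 in every array. The markers summed to 205 and 101 in the controls against 283 and 358 with LIN28A. Of the 5 glial markers, all 5 lay below 0, where 59.9% of all genes did so. They summed to 222 and 257 in the controls against 111 and 225 with LIN28A. Mbp alone gave 162 and 237 against 97.3 and 205, and Aldh1l1 and S100b read under 16 in every array.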

How the data were processed

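The labels give 4 arrays of total RNA, 2 of control P19 cells and 2 of P19 cells expressing LIN28A. The deposited values are linear intensity values of 22690 probe sets. What software made them is unknown: the sources used here do not give it. Their means after trimming were 150.1 in every array, so no further scaling was applied. Array number limits the precision of every value.

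Of the probe sets, 20380 had 1 gene symbol in the platform's annotation, 691 had several and 1555 other than the 64 controls had none; all 57 members matched the RefSeq gene table. Values became log2(value + 16), a scale that compresses differences of low genes. Probe sets under the 30th percentile of the mean (an intensity of 8.04) were not tested. The rest were fitted with limma 3.58.1 (lmFit, eBayes, no block) in R 4.3.3, with Benjamini-Hochberg adjustment over 15838 probe sets. The fit was also run on simulated data, without differences between the numbers and with larger changes than any member showed. That run therefore cannot tell how the fit performs on these arrays.

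Members and lists were chosen with earlier results of these data known. Genes described in full were the best known guidance genes, the 2 with the highest mean and up to 3 with the smallest p of each family, and those at least 0.5 apart within both numbers; the rest are named to account for them. Alternatives were quantile normalization, median centring, pseudocounts of 1 and 64, other filters, eBayes trend, the replicate block, other probe set choices and leaving out each array.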

Additional observations from a re-analysis of the deposited data

How the results depend on the processing

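The counts of members and partner genes called at an adjusted p under 0.05 were 0 under every setting run. Over all probe sets the replicate block called 1 higher and 0 lower. The replicate numbers are shared in the labels with nothing said of what they mark, and arrays of a number deviated alike from their line's mean (r = 0.59 over probe sets). With the replicate block, 2 members (Plxnd1, Sema3a) were higher and 5 (Dcc, Epha3, Epha5, Ntn1, Sema5b) lower at an unadjusted p under 0.05, against 468 and 890 of 15838 probe sets; it changed no call of a member at an adjusted p. Members higher in both arrays numbered 14 under quantile normalization (24.6% against 14.9% of all genes), 11 under median centring (19.3% against 17.9%) and 3 with second probe sets, against 6. Those at least 0.5 higher within both numbers were 2 (3.51%) under quantile normalization and under median centring, against 1.24% and 2.38% of all genes. They were 4 with pseudocount 1 (7.02% against 2.95%), and 0 with pseudocount 64 (against 0.403%), with probe sets averaged or with second probe sets. Those at least 0.5 lower were 2 (3.51%) under quantile normalization, median centring or pseudocount 64, against 1.5%, 1.12% and 0.613% of all genes, and 6 with pseudocount 1 (10.5% against 9.26%). The Eph receptor median was 0.07 under median centring. The plexin and neuropilin median was 0.09 under quantile normalization, 0.14 under median centring and 0.14 with second probe sets, and the netrin family median was -0.55 with pseudocount 1. Without 1 array, the median ran from -0.18 to 0.14 over all members, -0.16 to 0.12 for Eph receptors, -0.10 to 0.20 for ephrins, -0.29 to 0.23 for semaphorins, -0.01 to 0.25 for plexins and neuropilins, -0.22 to 0.00 for Slits and Robos and -0.31 to -0.12 for netrins, Dcc and Unc5. Signs turned for Efnb2 (-0.25 with probe sets averaged, -0.15 at the second), Epha7 (-0.04 and -0.41), Sema4b (0.04 at the second), Sema4d (0.01 under median centring, 0.05 at the second), Sema4g (0.07 under median centring) and Nck2 (0.33 at the second). Without 1 array they turned for Efnb1 (-0.50 to 0.82), Nrp1 (-0.66 to 0.34), Nrp2 (-0.01 to 0.78), Robo1 (-0.79 to 0.13), Sema4d (-0.29 to 0.07), Sema4g (-0.65 to 0.53) and Slit2 (-1.05 to 0.29). The cause of each shift was not tested. Leaving out 1 array leaves unequal replicate numbers, so part of the difference between numbers enters those fits, and the lone array is assumed to vary like the other line. Values under 16 carry little information, and 14 of the 57 members read so in every array.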
